A study of Mus musculus with 101 samples.

Results

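Microglia, the resident macrophages of the brain, and other macrophages share a set of genes for taking up and digesting particles, sensing antibodies and making reactive oxygen, and 33 such genes are described here. They were chosen by name, as a list of genes of activated microglia and macrophages. The choice was made with earlier results of these data known, so counts of members set against all genes are descriptive. Each of the 33 was found among the 24056 gene entries used. C57 mice were injected intraperitoneally with lipopolysaccharide (LPS, a component of the bacterial outer membrane) at 5 mg per kg or with phosphate-buffered saline (PBS), and 2 cortical areas, labelled PFC and VCX, were taken after 1, 2 or 14 days. From each area and day, messenger RNA was sequenced from tissue lysate (the input) and from ribosomes that carried a hemagglutinin tag in astrocytes and were pulled down with an antibody to that tag (the IP). A further set of day 1 PFC libraries was made from whole tissue. The 101 libraries formed 26 groups of 4, except the LPS groups of day 2 PFC IP, day 2 VCX input and day 1 whole tissue, which held 3 each. By label, 55 libraries were from females and 46 from males, and the whole tissue libraries were all female. These are counts of libraries and not of animals. Tagged ribosomes were thus shared by the LPS and PBS animals of the IP and input groups. The labels do not give the promoter or recombinase line that placed the tag in astrocytes, nor the age of the animals. They also leave unsaid whether the libraries of a group are separate animals, and whether an animal gave more than 1 of the PFC, VCX, IP and input libraries, so p-values measure the spread between libraries, which may be technical. Each day was sequenced as a project of its own and the whole tissue as another, so day and project cannot be told apart.

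As background, microglia and macrophages arise under the transcription factor PU.1, encoded by Spi1, and depend for survival on the receptor encoded by Csf1r. Complement C1q, Fc receptors and Trem2 recognise tagged or damaged material, and the adaptors Tyrobp and Fcer1g pass on the signal of some of these receptors. The lysosome and the NADPH oxidase deal with what has been engulfed. LPS given systemically is widely used to bring microglia into an activated state, and astrocytes are not the main source of these transcripts in healthy brain.

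Depth, worked back from the deposited values, was between 4.21 M and 72.94 M reads, the median library having 40.79 M. The 3 libraries under 10 M reads were all day 14 input. One library stood apart from its label: whole tissue PBS replicate 3 had Msr1 at 2.72 FPKM (fragments per kilobase of transcript, scaled to library size), against 0.0653 to 0.0887 FPKM in the other PBS libraries and 2.56 to 3.33 FPKM in the LPS libraries. The result from whole tissue is therefore given with and without the library labelled PBS replicate 3. In 2 files of the whole tissue PBS group the column name differed from the sample's title, and the libraries were kept as labelled. The pulldown matched its label in astrocyte markers. The summed FPKM of 10 astrocyte markers, scaled between libraries, was 15800 to 22500 in the IP and 647 to 978 in the input. Gfap, the intermediate filament of astrocytes, was higher in the IP by 4.44 on the log2 scale in PBS animals at day 1 in PFC. The 7 red blood cell markers also summed higher in the IP, at 7.34 to 26.3 FPKM (scaled) against 0.552 to 2.23 FPKM in the input. The part of blood cells in the IP levels was not tested.

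The regulatory sequence of Fcgr4, C1qc and Cybb is shown because these genes led the change of their role group and hold the motifs searched for. RefSeq promoters (GRCm38.p6) were matched for 25 of the 33 genes, with 28 promoters among them. Those of Adgre1 (listed as Emr1), Cd52, Csf1r, Msr1, Tyrobp, Itgb2, Spi1 and C1qa were not used. The 250 bases before each start were searched on both strands for GAGGAAGT, letters bound by PU.1, and for GAAA, any 2 bases and GAAA again, letters like those bound by interferon regulatory factors. These were kept from a larger number of motifs looked at, so the shares are descriptive only. The letters GAGGAAGT stood in 10.7% of the members' promoters (C1qc, Ctsc and Fcgr4) and in 2.44% of all 32851 promoters. The GAAA repeat stood in 17.9% of the members' promoters (Aif1, Ctss, Cybb, Fcgr4 and Ncf1) and in 2.98% of all promoters. Below, the sequence runs 5′ to 3′ on the gene's strand, and capitals mark the motif matches in either orientation. The Fcgr4 promoter (chr1:171018676-171018925, plus strand) holds both kinds of match, C1qc (chr4:136892915-136893164, minus strand) the first and Cybb (chrX:9469325-9469574, minus strand) the second in 3 places. A match is a run of letters and was not tested as a binding site.
Fcgr4: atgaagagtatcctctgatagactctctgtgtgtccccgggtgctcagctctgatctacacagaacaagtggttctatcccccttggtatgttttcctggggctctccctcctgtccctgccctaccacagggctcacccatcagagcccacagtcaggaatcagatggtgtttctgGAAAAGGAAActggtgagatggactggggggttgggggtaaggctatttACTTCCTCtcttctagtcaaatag
C1qc: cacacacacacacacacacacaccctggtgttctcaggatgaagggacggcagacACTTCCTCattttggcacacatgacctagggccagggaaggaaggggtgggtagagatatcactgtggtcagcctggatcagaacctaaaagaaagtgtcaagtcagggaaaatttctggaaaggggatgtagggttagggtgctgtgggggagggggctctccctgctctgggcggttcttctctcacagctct
Cybb: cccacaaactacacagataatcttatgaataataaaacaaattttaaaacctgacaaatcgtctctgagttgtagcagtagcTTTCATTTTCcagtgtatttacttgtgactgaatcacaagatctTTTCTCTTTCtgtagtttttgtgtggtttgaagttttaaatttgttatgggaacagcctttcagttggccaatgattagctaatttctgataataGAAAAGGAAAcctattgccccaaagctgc

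By position, 6 members lie on chromosome 1 and 5 on chromosome 4. Fcgr2b (chr1:170958617-170976547), Fcgr4 (chr1:171018920-171029761), Fcgr3 (chr1:171051174-171064935) and Fcer1g (chr1:171229572-171234365) lie near one another, as do C1qb (chr4:136880129-136886187), C1qc (chr4:136889804-136893065) and C1qa (chr4:136895917-136898803), in GRCm38 coordinates of GENCODE vM21. In the input of PBS animals the level per length was highest for Coro1a, an actin regulator. Its median was 75.4 FPKM over 24 libraries, and the cells behind that level were not tested. The lysosomal protease Ctss followed at 42.8 FPKM, then the C1q chains C1qa, C1qc and C1qb at 38.9, 31 and 27.9 FPKM. The lowest were Cybb (0.183 FPKM), Lgals3 (0.118 FPKM), Msr1 (0.085 FPKM) and Fcgr4 (0.0828 FPKM). In the IP of PBS animals the order differed, with Cyba (7.25 FPKM), Ctsc (6.02 FPKM) and Lyz2 (5.11 FPKM) on top.

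The comparison of LPS with PBS asked how the genes differed after injection in each day, area and fraction. At days 1 and 2 nearly all of them were higher after LPS. The input is RNA of all cells of the tissue and the IP is RNA pulled down from many cells, so in both more cells of a type and more RNA per cell cannot be told apart. In PFC input at day 1, 27 of the 32 members tested were higher and 1 was lower by limma with an adjusted p under 0.05, against 8.14% of all 14676 genes tested that were higher and 8.64% that were lower. In VCX input at day 1 the same counts, 27 higher and 1 lower of 32, stood against 7.8% higher and 10.1% lower among all genes. The median log2 change of the tested members was 1.21 in PFC and 1.27 in VCX, and the median over all genes tested was within 0.045 of 0 in every comparison of LPS with PBS. In the day 1 IP, 30 of 31 members were higher in PFC (11.8% of all genes higher, 8.94% lower) and 31 of 31 in VCX (11.5% higher, 10.2% lower), with medians of 1.52 and 1.84. At day 2 fewer genes passed in all. In the input, 30 of 32 members were higher in PFC (3.19% of all genes higher, 0.518% lower) and 28 of 32 in VCX (1.79% higher, 0.211% lower), with medians of 1.32 and 1.27. In the day 2 IP, 31 of 32 were higher in PFC (5.08% of all genes higher, 2.76% lower) and 32 of 32 in VCX (4.16% higher, 3.14% lower), with medians of 2.43 and 2.32. Across these 8 comparisons, 23 genes were higher in all 8.

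**Figure D1:**
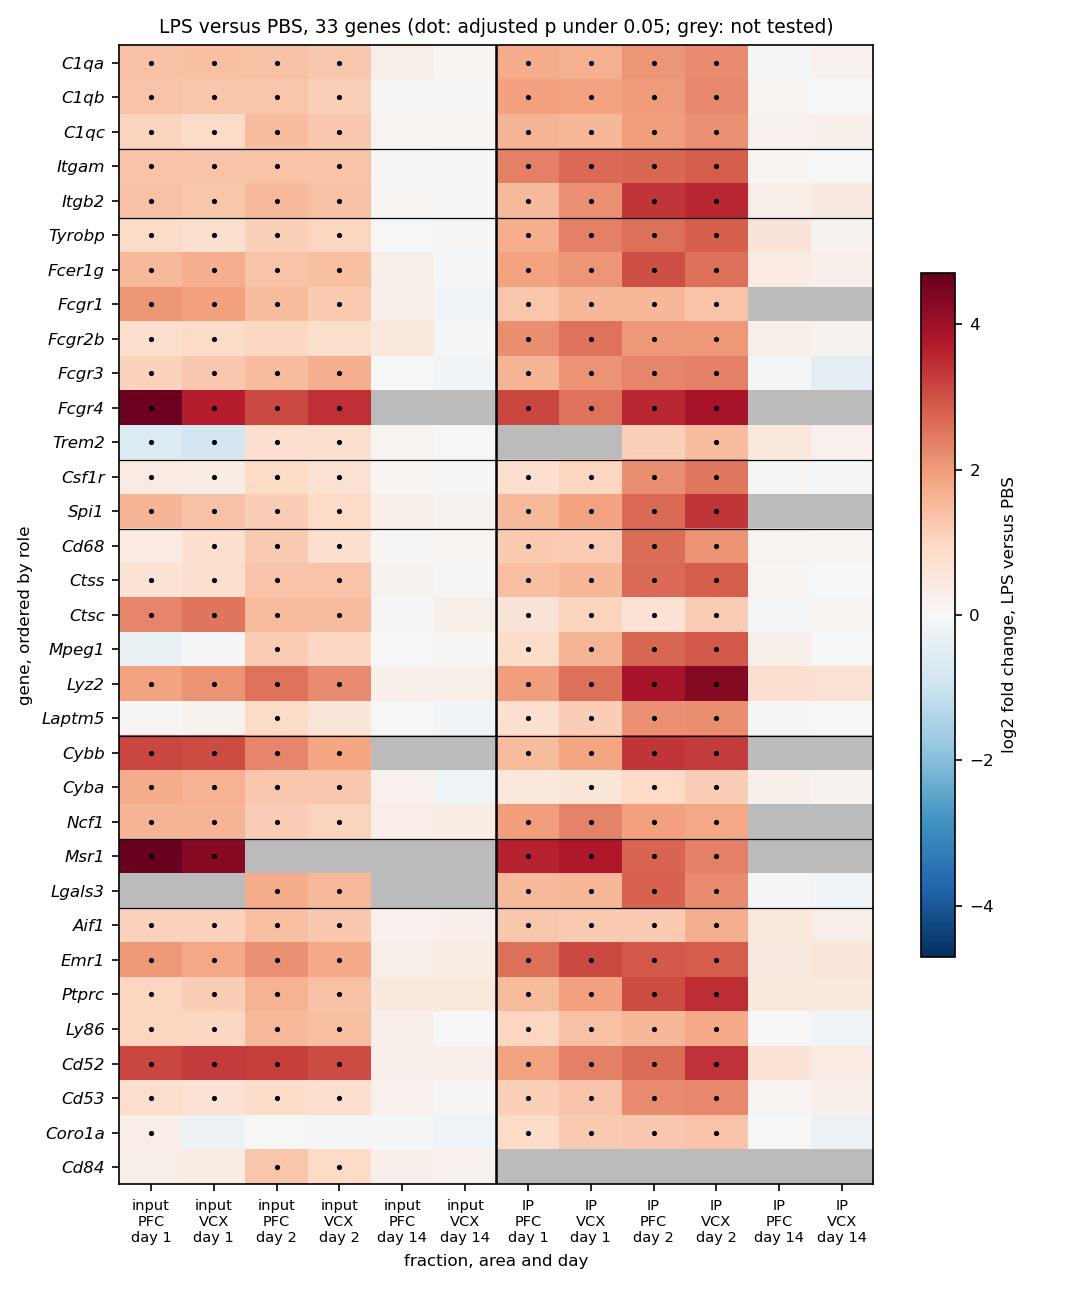
The 33 genes (rows, by role) and 12 comparisons of LPS with PBS (columns: input then IP, by area and day), colored by the log2 change; a dot marks an adjusted p under 0.05 by limma and grey a gene that was not tested. The columns of days 1 and 2 are mostly red with dots, Trem2 is blue in the input at day 1, and the columns of day 14 hold no dot.

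Without rescaling between libraries the split of all called genes moved towards higher calls in the day 1 input, where 65.4% of calls were higher in PFC in place of 48.5%, and 59% in VCX in place of 43.6%. The share in the day 2 PFC IP was 54.5% in place of 64.8%. The counts of members that were higher stayed within 1.5 times of those above.

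A gene was tested where the number of libraries at 0.5 FPKM or more was no less than the size of the smallest group fitted. This left out Lgals3 in the day 1 input and whole tissue, Msr1 in the day 2 input, Trem2 and Cd84 in the day 1 IP and Cd84 in the day 2 IP. Genes that were low in PBS could pass through the LPS libraries alone. In the input this held for Fcgr4, Msr1, Cybb and Lgals3, whose highest PBS values were 0.256, 0.178, 0.433 and 0.341 FPKM. In the IP it held for Fcgr1, Fcgr4, Ncf1, Msr1 and Emr1, with highest PBS values of 0.444, 0.28, 0.469, 0.0681 and 0.48 FPKM. Their calls and their place in the counts above are limited by this.

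The 3 chains of C1q, which opens the classical complement pathway and tags synapses and debris, were higher after LPS in each of the 8 comparisons of days 1 and 2. In the PFC input at day 2, C1qc was 38.1, 33.1, 36.9 and 33.5 FPKM in the PBS libraries and 90.9, 97.1, 130.0 and 86.3 FPKM in the LPS libraries. The groups did not overlap, and 1 LPS library stood above the other 3. The log2 change of C1qc was 1.44 (SE 0.11, adjusted p = 4.29e-06 by limma). C1qa in the PFC input at day 1 was 43.9, 39.4, 38.9 and 36.1 FPKM in PBS and 113, 117, 100 and 100 FPKM in LPS. No library of one group reached the other, and the log2 change was 1.39 (SE 0.07, adjusted p = 5.88e-09 by limma). In the IP of that day and area C1qa was 2.31, 1.9, 1.81 and 3.01 FPKM in PBS and 8.11, 5.89, 7.28 and 8.89 FPKM in LPS, so the groups again did not overlap, at a much lower level. C1qb changed by 1.34 in the PFC input and 1.91 in the PFC IP at day 1 on the log2 scale.

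Itgam and Itgb2 encode the chains of the integrin that serves as complement receptor on macrophages, and both were higher in each of the 8 comparisons. In the PFC input at day 2, Itgb2 was 1.57, 1.42, 1.7 and 1.58 FPKM in PBS and 4.43, 4.41, 6.42 and 4.44 FPKM in LPS. In the IP of the same day and area it was 0.494, 0.374, 0.483 and 0.6254 FPKM in PBS and 4.32, 4.92 and 9.36 FPKM in LPS. Neither pair of groups overlapped, and the LPS libraries of the IP reached the level of the input. The log2 change was 1.51 (SE 0.13, adjusted p = 1.11e-05) in the input and 3.37 (SE 0.30, adjusted p = 2.23e-05) in the IP by limma. Itgam in the PFC input at day 1 was 5.2, 4.53, 4.6 and 4.65 FPKM in PBS and 17.1, 10.6, 14.6 and 9.76 FPKM in LPS, with no overlap and a log2 change of 1.35 (SE 0.15, adjusted p = 1.52e-05 by limma).

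Among the adaptors, Fc receptors and Trem2, 6 of 7 genes rose in the day 1 input of both areas and Trem2 fell. Fcgr4, the activating receptor for IgG antibodies, was 0, 0.201, 0.0454 and 0.0501 FPKM in the PBS libraries of the day 1 PFC input, which is 0 to 10 reads. In the LPS libraries it was 5.03, 5.15, 4.39 and 3.62 FPKM, or 178 to 283 reads. The groups lay far apart, and the log2 change of 4.61 (SE 0.27, adjusted p = 2.02e-08 by limma) depends on the 0.1 added to each value. In the VCX IP at day 2, Fcgr4 was 0.0167, 0.0524, 0.0774 and 0.0358 FPKM in PBS and 1.35, 1.34, 2.1 and 2.24 FPKM in LPS, a log2 change of 3.88 (SE 0.29, adjusted p = 2.19e-06 by limma) with no overlap. The inhibitory receptor Fcgr2b passed the test in 6 of the 8 comparisons, and its adjusted p was 0.0817 in the PFC input and 0.278 in the VCX input at day 2. Fcgr1, the high-affinity IgG receptor, changed by 2.08 and the common chain Fcer1g by 1.53 in the PFC input at day 1. Fcgr2b, Fcgr3 and Fcgr4 are similar in sequence, and how reads shared between them were counted is not given in the sources used here.

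Trem2 and its signalling partner Tyrobp moved apart at day 1. Tyrobp in the PFC input was 22.4, 23.9, 22.1 and 22.1 FPKM in PBS and 45.0, 46.4, 44.6 and 39.7 FPKM in LPS, with no overlap, and rose by 0.91 on the log2 scale (SE 0.08, adjusted p = 6.22e-07 by limma). Trem2, a receptor for lipids and apolipoproteins, was 7.13, 7.51, 6.46 and 7.05 FPKM in PBS and 3.93, 5.13, 3.98 and 5.77 FPKM in LPS in the same libraries. Every LPS library was below every PBS library, and Trem2 fell by 0.63 (SE 0.14, adjusted p = 0.00403 by limma). In the VCX input it was 6.03, 6.55, 7.75 and 8.23 FPKM in PBS and 4.09, 3.17, 3.72 and 4.71 FPKM in LPS, again without overlap, and fell by 0.89 (SE 0.14, adjusted p = 0.000223 by limma). Trem2 was the one member called lower in either area.

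At day 2 Trem2 was higher after LPS. It was 8.52, 9.73, 10.2 and 8.67 FPKM in PBS and 15, 17.2, 21.8 and 14.7 FPKM in LPS in the PFC input, with no overlap and a log2 change of 0.81 (SE 0.10, adjusted p = 0.000238 by limma). In the VCX input it was 7.95, 8.07, 8.46 and 8.17 FPKM in PBS and 14.0, 14.8 and 13.2 FPKM in LPS, a change of 0.75 (SE 0.11, adjusted p = 0.00192 by limma). The change at day 2 minus that at day 1 was 1.44 (SE 0.18) in PFC and 1.63 in VCX, and both differences passed the test by limma. Trem2 was low in the day 2 IP, where the PFC libraries were 0.33, 0.706, 0.593 and 0.415 FPKM in PBS and 0.619, 2.49 and 0.799 FPKM in LPS. These overlapped, and its log2 change of 1.12 (SE 0.44) had an adjusted p of 0.151 by limma. In the VCX IP the change was 1.45 (SE 0.41, adjusted p = 0.0458 by limma), and this call was lost on leaving out any of the 4 PBS libraries or any of LPS replicates 1 to 3.

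The lineage genes Csf1r and Spi1 were higher in all 8 comparisons. In the PFC input at day 1, Spi1 was 1.44, 1.6, 1.49 and 1.46 FPKM in PBS and 6.35, 4.41, 4.41 and 5.0 FPKM in LPS, with no overlap and a log2 change of 1.61 (SE 0.17, adjusted p = 7.86e-06 by limma). In the VCX IP at day 2, Spi1 was 0.141, 0.279, 0.109 and 0.202 FPKM in PBS and 2.38, 1.7, 3.19 and 3.04 FPKM in LPS, a change of 3.34 (SE 0.27, adjusted p = 4.34e-06 by limma). The groups did not overlap there either. Within VCX at day 2, Spi1 in the IP differed from the input by -2.21 in PBS (called lower) and by 0.21 in LPS (not called, and -0.48 without rescaling). Csf1r in the PFC input at day 1 was 23.6, 22.7, 21.3 and 21.8 FPKM in PBS and 33.2, 29.8, 30.8 and 27.9 FPKM in LPS, with no overlap and the smaller log2 change of 0.39 (SE 0.06, adjusted p = 0.000544 by limma). At day 2 Csf1r was 22, 19.2, 20.9 and 21.1 FPKM in PBS and 33.2, 46.6, 52.6 and 35.3 FPKM in LPS, a change of 0.93 (SE 0.13, adjusted p = 0.000577 by limma).

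The 6 lysosomal, protease and pore genes differed among themselves in the input. Lyz2, the lysozyme of macrophages and neutrophils, was 6.3, 7.73, 8.56 and 8.3 FPKM in PBS and 42.6, 46.3, 61.0 and 41.8 FPKM in LPS in the PFC input at day 2, with no overlap and a log2 change of 2.55 (SE 0.18, adjusted p = 4.29e-06 by limma). In the PFC IP of that day Lyz2 was 3.39, 2.5, 4.96 and 6.69 FPKM in PBS and 32.8, 88.2 and 84.8 FPKM in LPS, a change of 3.88 (SE 0.44, adjusted p = 0.000226 by limma). The PBS libraries of IP and input overlapped, and after LPS 2 of the 3 IP libraries lay above every input library. Lyz2 has the near-identical copy Lyz1, and how reads shared by both were counted is not given in the sources used here. Ctsc, which activates proteases of leukocyte granules, changed by 2.31 in PFC and 2.52 in VCX at day 1 in the input, and by 0.62 and 1.06 in the IP.

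Cd68, a lysosomal membrane protein, was 5.61, 4.73, 3.19 and 2.95 FPKM in PBS and 5.31, 5.71, 6.89 and 4.24 FPKM in LPS in the PFC input at day 1. These overlapped, and the adjusted p of its log2 change of 0.40 (SE 0.19) was 0.162 by limma. At day 2 Cd68 was 3.76, 3.03, 4.14 and 3.38 FPKM in PBS and 8.19, 8.97, 11.8 and 7.31 FPKM in LPS, with no overlap and a change of 1.24 (SE 0.14, adjusted p = 7.15e-05 by limma). Mpeg1, which encodes the pore protein perforin-2, had changes of -0.30 (adjusted p = 0.236) in PFC and -0.05 (adjusted p = 0.883) in VCX in the day 1 input by limma, and rose by 1.2 (SE 0.21, adjusted p = 0.00386) in PFC at day 2. Laptm5, a lysosomal membrane protein of leukocytes, likewise missed the threshold in the day 1 input with 0.06 (adjusted p = 0.686) and 0.17 (adjusted p = 0.18) by limma. In the IP all 6 genes of the group rose at both days and in both areas. The Laptm5 call in the day 1 PFC IP was lost without PBS replicate 1, PBS replicate 3 or LPS replicate 2.

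**Figure D2:**
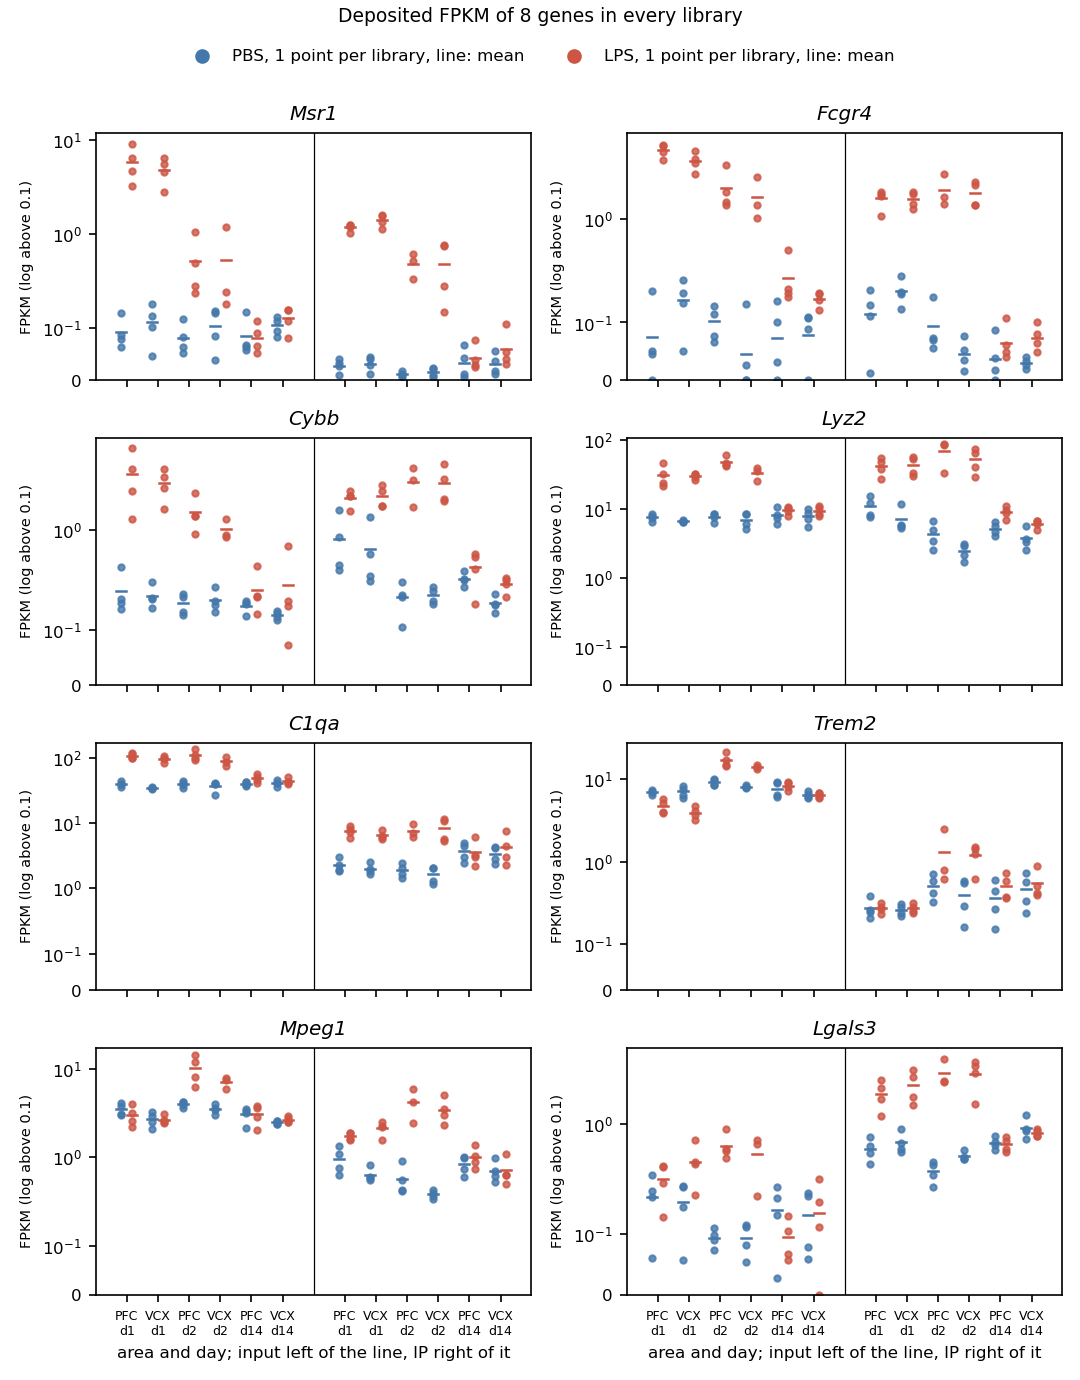
Deposited FPKM (axis linear below 0.1 and logarithmic above) of Msr1, Fcgr4, Cybb, Lyz2, C1qa, Trem2, Mpeg1 and Lgals3 in each input and IP library, by day and area, with PBS in blue, LPS in red and the group mean as a line. The red points of Msr1 and Fcgr4 stand far above the blue points at day 1, those of Trem2 in the input lie below at day 1 and above at day 2, and the colors overlap in most panels of day 14.

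The phagocyte NADPH oxidase was covered by its catalytic chain Cybb, its membrane partner Cyba and its cytosolic subunit Ncf1. In the PFC input at day 1, Cybb was 0.433, 0.206, 0.185 and 0.163 FPKM in PBS and 6.79, 2.5, 4.13 and 1.31 FPKM in LPS. The groups did not overlap, the LPS libraries differed widely among themselves, and the log2 change was 3.14 (SE 0.40, adjusted p = 0.000106 by limma). In the PFC IP of day 1, Cybb was 0.864, 0.445, 0.4 and 1.6 FPKM in PBS and 2.48, 2.24, 1.57 and 2.2 FPKM in LPS, where 1 PBS library lay among the LPS libraries. At day 2 the PFC IP libraries of Cybb were 0.214, 0.106, 0.222 and 0.305 FPKM in PBS and 1.7, 3.22 and 4.22 FPKM in LPS, with no overlap and a change of 3.36 (SE 0.32, adjusted p = 2.23e-05 by limma). Ncf1 rose in all 8 comparisons. Cyba rose in 7, and in the day 1 PFC IP its change of 0.50 had an adjusted p of 0.0574 by limma. Its call in the day 1 VCX IP (0.56, adjusted p = 0.0345 by limma) was lost without PBS replicate 2 or 3 or LPS replicate 3 or 4.

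Of the scavenger receptor Msr1, which takes up modified lipoproteins, and the galactose-binding lectin Lgals3, both rose wherever they were tested at days 1 and 2. Msr1 in the PFC input at day 1 was 0.0857, 0.144, 0.0639 and 0.0783 FPKM in PBS and 8.91, 4.68, 6.36 and 3.2 FPKM in LPS. The log2 change of 4.65 (SE 0.28, adjusted p = 2.6e-08 by limma) was the highest of the tested members in that comparison, and no library of one group reached the other. Msr1 was tested there through its LPS libraries alone, so this rank is descriptive. At day 2 Msr1 in the PFC input was 0.082, 0.0641, 0.0519 and 0.124 FPKM in PBS and 1.04, 0.281, 0.494 and 0.233 FPKM in LPS, too low in most libraries to be tested for that day alone. Fitted over both days, the Msr1 change at day 2 minus that at day 1 was -3.20 (SE 0.48) in PFC and -3.01 in VCX. Lgals3 was low in the input and was tested there at day 2, when it was 0.0897, 0.114, 0.0738 and 0.0979 FPKM in PBS and 0.486, 0.589, 0.901 and 0.562 FPKM in LPS in PFC, with no overlap and a change of 1.73 (SE 0.25, adjusted p = 0.000645 by limma). In the PFC IP of day 2 Lgals3 was higher, at 0.269, 0.342, 0.45 and 0.419 FPKM in PBS and 2.45, 2.4 and 3.85 FPKM in LPS, a change of 2.78 (SE 0.26, adjusted p = 1.98e-05 by limma).

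Among the 8 other leukocyte surface and cytoskeletal genes, 7 rose in the day 1 PFC input and 6 in VCX. Cd52, a small surface glycoprotein of leukocytes, was 1.36, 1.47, 1.1 and 1.33 FPKM in PBS and 13.4, 11.1, 19.4 and 15 FPKM in LPS in the VCX input at day 1, with no overlap and a log2 change of 3.30 (SE 0.22, adjusted p = 1.94e-07 by limma). Emr1, the adhesion receptor Adgre1 of macrophages, was 2.5, 2.1, 2.56 and 3.01 FPKM in PBS and 24, 8.44, 12.7 and 5.87 FPKM in LPS in the PFC input at day 1. These groups did not overlap, though the LPS libraries spread widely, and the change was 2.04 (SE 0.30, adjusted p = 0.000569 by limma). Aif1, a calcium-binding protein used to stain microglia, was 5.68, 7.0, 6.07 and 6.32 FPKM in PBS and 18.4, 12.4, 14.4 and 10.9 FPKM in LPS, with no overlap and a change of 1.08 (SE 0.13, adjusted p = 2.52e-05 by limma). Coro1a went its own way in the input. Its change was 0.31 (adjusted p = 0.035) in PFC at day 1, -0.23 (adjusted p = 0.113) in VCX at day 1, and 0.03 and -0.08 at day 2 (adjusted p = 0.916 and 0.831) by limma, while in the IP it rose by 0.91, 1.23, 1.27 and 1.34. The Coro1a call in the day 1 PFC input was lost without PBS replicate 1 or any one of the 4 LPS libraries. Ptprc, a tyrosine phosphatase carried by all leukocytes, rose by 1.00 and 1.16 in the day 1 input and by 3.05 and 3.45 in the day 2 IP, in PFC and VCX. Cd84, a receptor of leukocyte contacts, was not called in the day 1 input and rose by 1.29 and 0.95 at day 2.

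In the day 2 VCX input, which had 3 LPS libraries, several calls rested on a library. Cd68 and Csf1r were no longer called without LPS replicate 1 or 2, and Cd53, Cd84, Lgals3 and Ncf1 without LPS replicate 2, when 22 members were called in place of 28.

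Genes of the same pathways gave a mixed picture. Ncf4, a cytosolic subunit of the NADPH oxidase, and Rac2, a small GTPase that acts with it, rose in each of the 8 comparisons, with Ncf4 at 1.81 and Rac2 at 1.71 on the log2 scale in the day 1 PFC input. Of the kinases and adaptors that act below receptors with an ITAM motif, 8 of 10 tested rose in the day 1 PFC input and 9 of 10 in the VCX input, and none fell, with the adaptor Lcp2 at 1.53 in PFC. Of the same list 8 of 10 and 9 of 10 rose in the IP at day 2. Of the Toll-like receptors with Cd14 and Ly96, 5 of 8 rose in the day 1 input of each area, among them Tlr2 (4.11 in PFC), which senses bacterial lipoproteins, and Cd14 (2.24 in PFC), which hands LPS to its receptor. Of 12 genes tested from a list of damage-associated microglia, 4 rose in the day 1 PFC input, led by the cystatin Cst7 at 2.22, and 1, Apoe, fell by 0.28. In the day 2 IP 4 of 13 of that list rose in each area, among them Clec7a (1.83 in PFC) and Itgax (1.62 in PFC). Most of that list stood higher in the astrocyte IP than in the input. In PBS animals at day 1 in PFC, 9 of 12 were higher and 2 lower (42.2% and 40.9% of all genes), with a median of 2.4. The cells behind the changes of that list were not tested. Of 7 myeloid transcription factors tested, 3 rose and 1 fell in the day 1 PFC input, with Irf8 at 1.07 and Mef2c at -0.28. Of the Csf1r ligands, Csf1 rose by 0.35 in that comparison, and Il34 fell by 0.28 in the VCX input.

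Markers of resting microglia moved otherwise at day 1. Of 11 tested in the PFC input, 5 fell, among them P2ry12 (-2.01), Siglech (-1.56) and Gpr34 (-1.48). In the same comparison 4 rose, and their values are not reported here. In the VCX input 6 fell and 3 rose. The summed level of the list differed little, at 133 to 143 FPKM (scaled) in PBS and 131 to 137 FPKM in LPS in the day 1 PFC input. At day 2, 5 of 12 rose and none fell in the PFC input, and the sums were 119 to 144 FPKM in PBS and 169 to 235 FPKM in LPS.

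Markers of blood leukocytes rose with the members. Of 10 neutrophil markers tested in the day 1 PFC IP 7 rose, and of those in VCX 9. In PFC they summed to 13.2 to 53.5 FPKM (scaled) in PBS and 154 to 235 FPKM in LPS, with S100a8 changed by 2.94 and Mmp8 by 2.60. In the day 1 PFC input the sums were 2.41 to 6.59 FPKM and 12.4 to 26.8 FPKM, and 4 of 5 tested rose. In the day 2 IP of PFC the sums were 7.15 to 25.7 FPKM and 54 to 139 FPKM, and 6 of 9 rose. The 8 monocyte markers summed to 3.17 to 5.79 FPKM in PBS and 9.85 to 19.9 FPKM in LPS in the day 1 PFC IP, where 6 of 7 rose and 1 fell, and to 1.82 to 2.12 and 3.16 to 4.22 FPKM in the input, where 2 of 3 rose. The 8 border macrophage markers summed to 5.75 to 8.51 and 6.5 to 11.8 FPKM in the day 1 PFC input, where 2 of 8 rose. None of the neutrophil and monocyte markers found in the files was at 0 throughout a day 1 group, whereas of 8 lymphocyte markers none reached the level needed for a test and Cd3e was at 0 in the LPS libraries of the day 1 PFC IP and input. Several members, such as Lyz2, Cybb, Itgam, Itgb2 and Coro1a, are also made by neutrophils and monocytes. The part of those cells, or of any other cell type, in the levels and changes was not tested.

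At day 14 no member was called. In the input 0 of 29 tested members passed in PFC and in VCX by limma (0% of 14398 genes in either area), with 3 higher and 0 lower at an unadjusted p under 0.05 in PFC and 3 higher and 1 lower in VCX. In the IP 0 of 26 passed in either area (0% of 12958 genes), with 3 and 5 higher and 0 lower at an unadjusted p under 0.05 in PFC and VCX. By limma-voom on the recovered reads the count was 0 in all 4 comparisons. The median log2 change of the members was 0.206 and 0.0617 in the input and 0.171 and 0.157 in the IP, in PFC and VCX. In the IP of day 14 Lyz2 was 4.55, 4.05, 5.72 and 6.4 FPKM in PBS and 6.82, 8.84, 9.51 and 11.2 FPKM in LPS in PFC, groups that did not overlap, with a log2 change of 0.79 (SE 0.22). The Fcgr4 libraries of the PFC input at day 14 were 0.031, 0.1, 0.16 and 0 FPKM in PBS and 0.494, 0.176, 0.208 and 0.194 FPKM in LPS, also apart but under the level tested. Neutrophil markers summed to 8.47 to 19.8 FPKM in PBS and 11.2 to 36.9 FPKM in LPS in the day 14 PFC IP, and their part in the Lyz2 values was not tested. Every LPS library lay above every PBS library for Fcgr1, Fcgr4, Ctss, Emr1 and Ptprc in the PFC input (1.25% of genes at the level tested did so), Fcgr4 and Ptprc in the VCX input (0.553%), Lyz2 and Ncf1 in the PFC IP (0.559%) and Fcgr4 in the VCX IP (0.467%). Of the members at that level, this was 4 of 29, 1 of 29, 1 of 22 and 0 of 22. Fcgr4, Msr1, Cybb and Lgals3 in the input, and Fcgr4, Msr1, Cybb, Fcgr1, Ncf1, Spi1 and Cd84 in the IP, were too low to be tested at day 14.

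**Figure D3:**
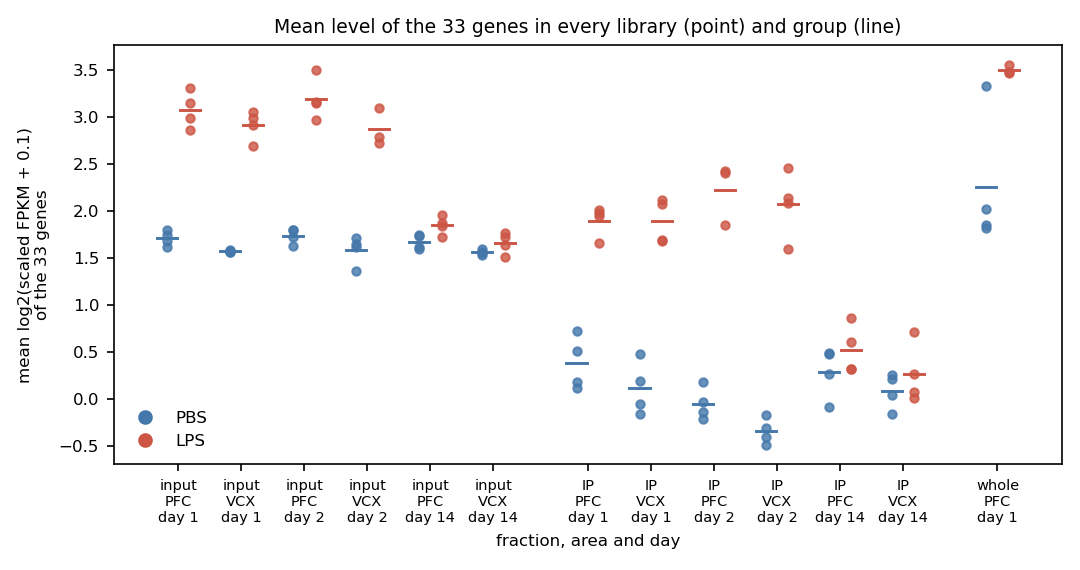
Mean over the 33 genes of log2 of the scaled FPKM plus 0.1 in each library (points), with the group mean as a line, by fraction, area and day. LPS libraries lie above PBS libraries at days 1 and 2 in both fractions, the groups lie close at day 14, and 1 whole tissue library labelled PBS stands at 3.329, near the LPS libraries at 3.467 to 3.559.

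The mean level of the 33 genes gave the same picture library by library. In the day 1 PFC input the mean of log2 of the scaled FPKM was 1.623 to 1.795 in PBS and 2.858 to 3.312 in LPS. In the day 2 PFC IP it was -0.2137 to 0.18 in PBS and 1.853 to 2.428 in LPS. At day 14 the PFC input stood at 1.593 to 1.742 in PBS and 1.728 to 1.962 in LPS, which overlap.

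The comparison of IP with input asked which of these transcripts were recovered with the tagged ribosomes. Most were depleted. In PBS animals at day 1, 22 of 33 members were lower in the IP and 6 higher in PFC, against 40.9% lower and 42.2% higher among all genes, and in VCX 23 were lower and 6 higher against 41.3% and 42.6%. At day 2 the PBS counts were 25 lower and 3 higher in PFC (40.8% and 41.6% of all genes) and 26 lower and 3 higher in VCX (39.8% and 42.8%). At day 14 they were 22 lower and 3 higher of 30 in PFC (41.2% and 41.4%) and 23 lower and 3 higher in VCX (40.9% in each direction). The median log2 difference lay between -2.29 and -1.84 over these 6 comparisons. For reference, the 8 neuron markers were all lower, with medians from -3.62 to -3.45, and the 10 astrocyte markers all higher, with medians from 4.44 to 4.62. C1qa, at -3.46 in PFC at day 1, was among the most depleted members. Coro1a stood at -3.12 in PFC and -3.86 in VCX at day 1, and the cells behind its input level were not tested.

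A few members were higher in the IP of PBS animals. Lgals3, Ctsc and Cyba were so at each day, with Lgals3 at 1.69 and 2.01, Ctsc at 2.05 and 1.17 and Cyba at 1.32 and 1.22 on the log2 scale at day 1 in PFC and VCX. Fcgr4 (0.64 and 0.69), Lyz2 (1.10 and 0.73) and Cybb (1.80 and 1.59) were called higher at day 1. At day 2 none of these was called higher, and Lyz2 was called lower in VCX (-0.814). At day 14 Lyz2 was not called and Fcgr4 and Cybb were not tested. Neutrophil markers were also higher in the IP, 8 of 10 in PFC at day 1 in PBS, and monocyte markers 6 of 7, while of the markers of resting microglia 10 of 11 and of border macrophages 7 of 8 were lower; their part in the IP levels was not tested. These directions assume that the typical gene is equal in both fractions. Without rescaling the median of all genes shifted towards the input, to between -0.70 and -0.601, and Cyba turned to -0.08 and -0.10 in PBS at day 2 in PFC and VCX, while Lgals3 stayed called higher in PBS. Ctsc stayed above 0 in PBS, but in VCX at day 2 it went from 0.80 to 0.14 and was no longer called (adjusted p = 0.349 by limma).

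In LPS animals the median difference of the members was -1.43 in PFC and -1.17 in VCX at day 1, -1.14 and -0.999 at day 2, and -1.77 and -1.81 at day 14. The count of members called higher in the IP was above that of PBS animals at day 2 and below it at day 1. At day 1, 23 were lower and 4 higher in PFC (40.3% and 42.7% of all genes), and 22 lower and 5 higher in VCX (40.3% and 43.4%). At day 2, 21 were lower and 8 higher in PFC (39.2% and 42.5%), and 21 lower and 8 higher in VCX (39.3% and 41.8%). At day 14, 23 were lower and 4 higher of 30 in PFC (40.4% and 42.3%), and 22 lower and 3 higher in VCX (39.3% and 42.8%). Without rescaling the higher counts fell to 1 and 2 at day 1, to 3 and 4 at day 2 and to 2 in PFC at day 14. In that setting Ctsc in PFC at day 1 went from 0.37 to -0.35 on the log2 scale and was called lower (adjusted p = 0.0262 by limma), and Ctsc and Cyba in VCX at day 2 went from 0.52 to -0.18 and from 0.53 to -0.18 and were no longer called. Summed over the members, the scaled FPKM of the IP was 28.4% of that of the input in PBS and 36.9% in LPS in PFC at day 1, and 22.5% and 40.9% in VCX. At day 2 the percentages were 19 in PBS and 41.8 in LPS in PFC, and 14.9 and 44.0 in VCX. At day 14 they were 25.5 and 27.8 in PFC and 21.6 and 23.9 in VCX. Without rescaling these shares were lower, at 18.1% in PBS and 22.5% in LPS in PFC and 13.7% and 24.3% in VCX at day 1, 11.9% and 24.5% in PFC and 9.2% and 26.9% in VCX at day 2, and 13.8% to 17.6% at day 14. Itgb2 stood at -0.90 in PBS and 0.99 in LPS in PFC at day 2, and at -0.91 and 1.30 in VCX.

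**Figure D4:**
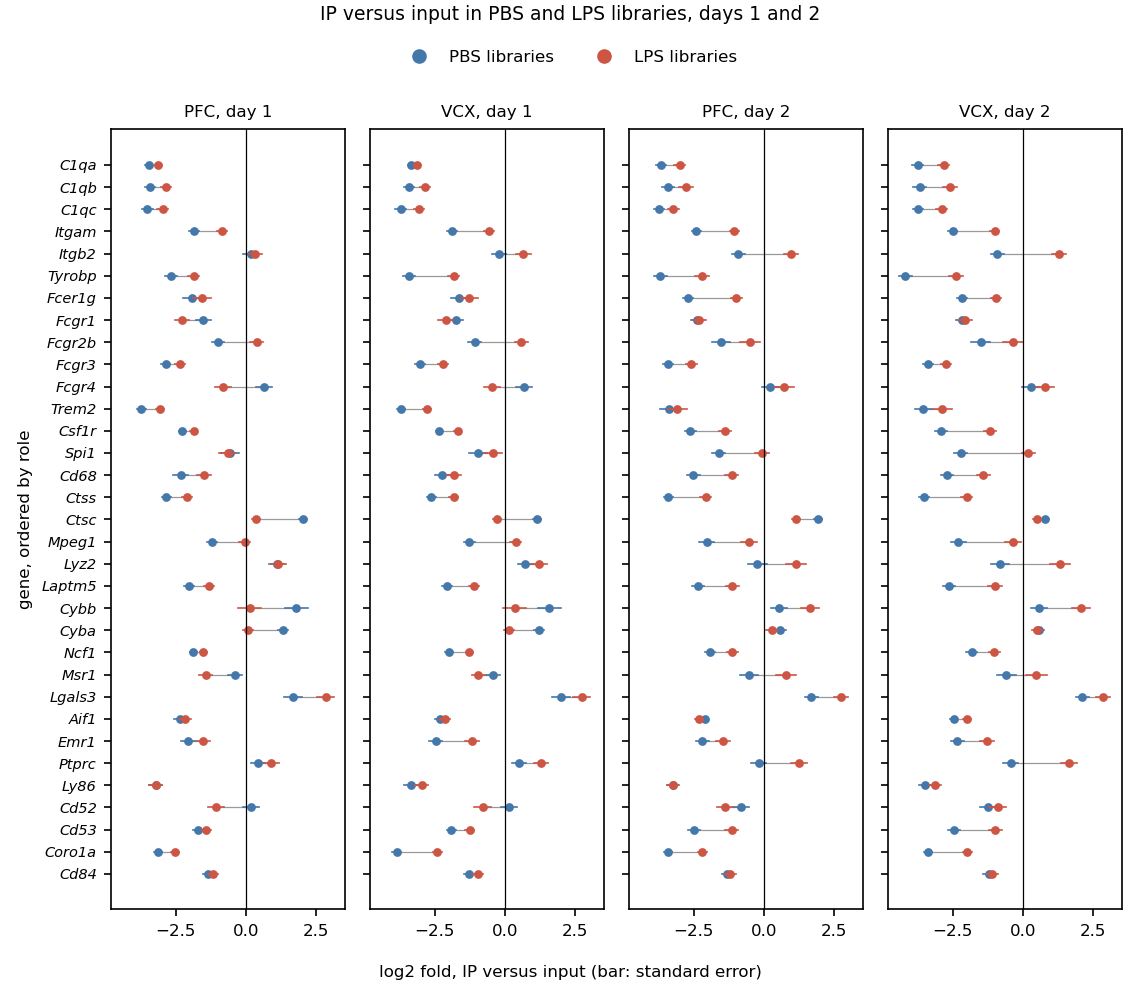
The log2 difference of IP from input for each gene (rows), with PBS in blue and LPS in red and bars of 1 standard error, in 4 panels for PFC and VCX at days 1 and 2. Most points lie left of 0, and in the day 2 panels most LPS points lie right of the PBS points, such as Itgb2 at 0.99 against -0.90 in PFC.

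Whether the LPS change itself differed between IP and input was tested as an interaction. In PFC at day 1, 6 members passed (3.52% of all genes with a larger change in the IP, 2.37% with a smaller one). Itgam (1.01, SE 0.25), Fcgr2b (1.38, SE 0.32) and Mpeg1 (1.17, SE 0.27) changed more in the IP, and Ctsc (-1.68, SE 0.20), Fcgr4 (-1.45, SE 0.42) and Cyba (-1.26, SE 0.25) less. In VCX at day 1, 12 passed with a larger change in the IP and 2 with a smaller one (5.58% and 3.33% of all genes). The 12 were Itgam, Tyrobp, Fcgr2b, Fcgr3, Trem2, Csf1r, Ctss, Mpeg1, Laptm5, Ncf1, Emr1 and Coro1a, from 0.66 for Csf1r to 1.66 for Mpeg1 and Fcgr2b, and the 2 were again Ctsc (-1.46) and Cyba (-1.07). Trem2 is among the 12 although its change was -0.89 in the VCX input and it was too low to be tested for LPS in the day 1 IP. Its difference therefore does not show a rise in the IP. At day 2 all that passed changed more in the IP. There were 10 in PFC (0.68% of all genes larger, 0.187% smaller), from 1.22 for Coro1a to 1.89 for Itgb2, and 14 in VCX (0.8% and 0.287%), led by Spi1 at 2.42 (SE 0.33, adjusted p = 0.00023 by limma) and Itgb2 at 2.21. Itgam, Itgb2, Tyrobp, Fcer1g, Csf1r, Spi1, Cd68, Ctss, Cd53 and Coro1a were called in both areas at day 2. At day 14 none passed by limma in either area (0% of all genes), and none had an unadjusted p under 0.05. The day 2 PFC count fell to between 4 and 6 on leaving out PFC IP PBS replicate 1 or 2, IP LPS replicate 3, input PBS replicate 1 or 4, or input LPS replicate 1, 2 or 4, and the day 1 PFC count was 10 without input LPS replicate 4. Without rescaling the share of all called genes with a larger change in the IP went from 59.8% to 38.1% in PFC and from 62.6% to 45.9% in VCX at day 1, and from 78.5% to 54.2% in PFC at day 2. Neutrophil markers summed to 45.2 to 97.3 FPKM in LPS and 2.3 to 8.65 FPKM in PBS in the day 2 VCX IP, and to 8.23 to 10.5 and 1.27 to 1.94 FPKM in the input, and their part in these differences was not tested.

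The difference between the LPS changes of days 2 and 1, which were separate projects, was tested within each fraction. In the PFC input 6 members changed more at day 2 and 2 less (1.09% and 1.54% of all genes). Trem2 (1.44), Mpeg1 (1.5), Cd84 (1.01), Laptm5 (0.85), Ctss (0.66) and Csf1r (0.54) changed more, and Fcgr4 (-1.52) and Msr1 (-3.20) less. In the VCX input 2 changed more and 2 less (1.31% and 1.09%), namely Trem2 (1.63), Ctss (0.57), Ctsc (-1.02) and Msr1 (-3.01). In the PFC IP 8 changed more and 0 less (2.56% and 2.6%). In the VCX IP 8 changed more and 1 less (3.32% and 4.41%). Itgb2, Csf1r, Ctss, Mpeg1, Lyz2, Cybb and Ptprc changed more at day 2 in the IP of both areas, from 1.22 for Ctss to 1.90 for Lyz2 in PFC, and Msr1 less in VCX (-1.39). The IP counts depended on single libraries: the PFC count was 3 to 5 without day 1 PFC IP PBS replicate 1 or 4, day 1 LPS replicate 1 or 3, day 2 PBS replicate 1, 2 or 4, or day 2 LPS replicate 2 or 3. The VCX count was 3 to 4 without day 1 VCX IP PBS replicate 1, day 1 LPS replicate 1 or 2, day 2 PBS replicate 1 or 4, or day 2 LPS replicate 3 or 4, and the VCX input count was 2 without day 2 LPS replicate 1 or 3. Without rescaling the share of called genes with a larger change at day 2 in the PFC input was 51.5% in place of 41.3%.

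No member's LPS change differed between PFC and VCX by limma. The count was 0 in the day 1 input (0% of all genes), in the day 1 IP (0%), in the day 2 input (0.00682%) and IP (0%), and in the day 14 input (0%) and IP (0%). At an unadjusted p under 0.05 there were 2 members in the day 1 input, 2 in the day 1 IP, 1 in the day 2 input, 2 in the day 2 IP and 0 at day 14. The differences, PFC minus VCX, ran from -0.377 to 0.92 in the day 1 input, from -0.745 to 0.608 in the day 1 IP, from -0.333 to 0.464 in the day 2 input and from -0.748 to 0.545 in the day 2 IP on the log2 scale. The median width of their 95% intervals was 0.883, 1.3, 0.927 and 1.69, so differences of this size between areas could be missed.

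In whole tissue of day 1 PFC, 0 of 32 members tested passed by limma when the labels were used as given (0.00676% of all 14788 genes higher, 0% lower). The lowest adjusted p of a member was 0.0895, for Coro1a, 29 members were higher and 0 lower at an unadjusted p under 0.05, and limma-voom called 1. Msr1 was 0.0681, 0.0887, 2.72 and 0.0653 FPKM in the libraries labelled PBS and 2.68, 2.56 and 3.33 FPKM in LPS. Cd52 was 0.935, 1.79, 21.4 and 3.35 FPKM in those labelled PBS and 30.9, 30.3 and 29.9 FPKM in LPS. For both genes the third library labelled PBS stood close to the LPS libraries and far from the other PBS libraries. Fcgr4 (0.119, 0.189, 5.57 and 0.152 FPKM against 5.49, 6.54 and 8.07 FPKM), C1qa, Tyrobp, Lyz2 and Cybb stood apart in the same library. Trem2 did not, at 7.82, 8.6, 7.63 and 10.1 FPKM in PBS and 7.42, 8.78 and 6.45 FPKM in LPS, which overlap. Every LPS library was above every library labelled PBS for 16 members. Of those at the level tested this was 15 of 32, against 6.53% of all genes at that level. Without the library labelled PBS replicate 3, 30 of 32 members were higher by limma, and 1579 of 14717 genes were called in either direction. That library was singled out by the values of these same members, so the count of 30 is descriptive only.

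**Figure D5:**
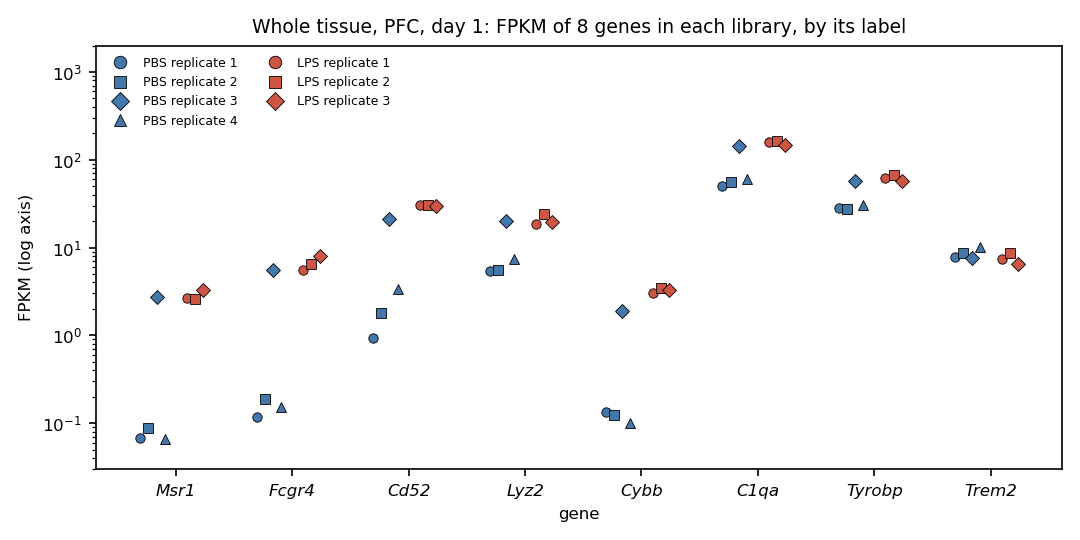
FPKM on a logarithmic axis of Msr1, Fcgr4, Cd52, Lyz2, Cybb, C1qa, Tyrobp and Trem2 in each whole tissue library, by label. The library labelled PBS replicate 3 lies at or near the LPS libraries for all of these but Trem2, for which the groups overlap.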

How the data were processed

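Values were FPKM per gene in one table per library, made by the authors with STAR, HTSeq and mm10, per the submitters' processing notes; versions and annotation are not given in the sources used here. PolyA libraries were prepared with TruSeq reagents, and RNA integrity was checked on a Bioanalyzer, per the labels' protocols. Of 24060 entries, 4 in which a date stood for a pair of genes were left out, and 23 other dates were kept as entries. In 2 files, both of whole tissue PBS libraries, the column name differed from the sample's title. The sample was taken from the deposited file's own sample. Reads were worked back from the steps of the deposited FPKM values, and 100% came out whole within 0.05 read.

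FPKM were divided by TMM factors (30% of log ratios and 5% of levels trimmed), 0.1 was added and log2 taken, so that fold changes of low genes are understated. Limma 3.58.1 in R 4.3.3, with mean trend, robust estimation and sex as covariate (none in whole tissue), was fitted to all genes at 0.5 FPKM or more in as many libraries as the smallest group, with Benjamini-Hochberg adjustment over all genes tested and a threshold of 0.05. Groups of a day and fraction shared a fit, which also gave the difference of changes between areas. IP against input, and differences of changes between fractions or between days, used 8 groups. The script was tested on simulated data. In all 41 comparisons were made. Limma-voom on the recovered reads was an alternative, with another normalization, no rescaling, no filter, a pseudocount of 1, no covariate, each comparison alone, and each library left out.

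Members and lists were chosen with earlier results of these data known. All 33 may be named; values in every library are given for 17 of them (the largest change of each role group and a fixed set), and of each other list at most 4 genes by size of change, some of which are not reported here. Depth is in the report; intervals cover the spread between libraries. RefSeq promoters were read from tables; figures were drawn with matplotlib 3.10.9.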

Additional observations from a re-analysis of the deposited data

Results flagged for a closer look

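In groups of 4 libraries, the gap of the outermost library was compared with the group's range by Dixon's 95% critical value, for the 17 genes given in every library and for the mean level of the members. Of 414 checks, each of 1 gene or the mean level in 1 group, 32 (7.73%) held a library past that value. Chance gives about 1 in 20 for independent checks, but these share libraries and are not independent. No cause is offered for any of these values.

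The third library labelled PBS of whole tissue accounted for 12. Its mean log2 level of the members was 3.329. In FPKM it held C1qa at 143.0, Itgam at 14.0, Itgb2 at 5.44, Tyrobp at 57.9, Fcgr4 at 5.57, Lyz2 at 20, Cybb at 1.89, Msr1 at 2.72, Aif1 at 20.3, Emr1 at 7.99 and Cd52 at 21.4.

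At day 1, the mean level of 1.656 of a PFC IP LPS library was low, as was Cd52 at 3.54 FPKM in replicate 3 of that group. Among VCX IP PBS libraries C1qc was low in replicate 3 (0.753 FPKM) and Lyz2 high in replicate 1 (11.7 FPKM). Cybb was high in replicate 1 of the PFC input PBS group (0.433 FPKM). At day 2, the values were Fcgr4 at 0.175 FPKM in replicate 1 of PFC IP PBS, Itgb2 at 6.42 FPKM in replicate 3 of PFC input LPS, and, in VCX input PBS, C1qa at 27.3 FPKM in replicate 4, Csf1r at 19.9 FPKM in replicate 2 and Emr1 at 2.32 FPKM in replicate 1. At day 14 in the IP they were Cd52 at 2.13 FPKM in replicate 3 of PFC PBS, Itgam at 1.13 and Csf1r at 4.48 FPKM in replicate 3 of PFC LPS, and Csf1r at 4.99 FPKM in replicate 4 of VCX LPS. In the day 14 input they were Msr1 at 0.147 FPKM in replicate 4 of PFC PBS, Fcgr4 at 0.494 FPKM in replicate 1 and Aif1 at 9.24 FPKM in replicate 4 of PFC LPS, Itgam at 3.9 FPKM in replicate 4 of VCX PBS, and Itgam at 3.97 FPKM in replicate 3 and Spi1 at 0.819 FPKM in replicate 1 of VCX LPS.

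The LPS change differed between days 1 and 2 in 29 cases by limma, given as day 2 minus day 1 on the log2 scale. In the PFC input these were Trem2 1.44, Mpeg1 1.5, Cd84 1.01, Laptm5 0.854, Ctss 0.662, Csf1r 0.537, Fcgr4 -1.52 and Msr1 -3.2. In the VCX input they were Trem2 1.63, Ctss 0.57, Ctsc -1.02 and Msr1 -3.01. In the PFC IP they were Lyz2 1.9, Cybb 1.86, Itgb2 1.84, Mpeg1 1.83, Ptprc 1.56, Csf1r 1.36, Laptm5 1.34 and Ctss 1.22. In the VCX IP they were Lyz2 1.71, Ptprc 1.52, Csf1r 1.45, Cybb 1.44, Itgb2 1.4, Fcgr4 1.34, Ctss 1.3, Mpeg1 1.28 and Msr1 -1.39. Each day was a sequencing project of its own, so day and project cannot be told apart.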

How the results depend on the processing

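No member's LPS change that was called turned its direction under the alternatives run. In IP against input, 28 values of members changed sign without rescaling, 8 of them called with it: Ctsc in LPS PFC at day 1 (-0.346, called lower), and, no longer called, Itgb2 (-0.0657) and Fcgr2b (-0.127) in LPS VCX at day 1, Cyba in PBS at day 2 in PFC (-0.0808) and VCX (-0.0969), Ctsc (-0.182) and Cyba (-0.178) in LPS VCX at day 2, and Lyz2 in LPS PFC at day 14 (-0.0805). The number of members higher after LPS at days 1 and 2 stayed within 1.5 times under every setting, and leaving out each library gave 26 to 27 (PFC) and 27 (VCX) in the day 1 input, 29 to 30 and 29 to 31 in the day 1 IP, 30 to 31 and 22 to 28 in the day 2 input, and 30 to 31 and 30 to 32 in the day 2 IP. At day 14 and between areas it stayed 0. Without rescaling, members higher in the IP than in the input were 1 (main 4), 2 (main 5), 3 (main 8), 4 (main 8) and 2 (main 4) in LPS at day 1 PFC and VCX, day 2 PFC and VCX and day 14 PFC, and 1 (main 3) in PBS at day 2 VCX. With a pseudocount of 1 the counts of differing LPS changes between IP and input were 10 (main 6) in PFC at day 1 and 5 (main 10) in PFC at day 2, and between days in the VCX IP 5 (main 9); without the sex covariate the last was 4. Whole tissue gave 1 higher member by limma-voom and 406 genes called. Leaving out each library moved the counts of differences between days to 6 to 8 (PFC input), 2 to 5 (VCX input), 3 to 10 (PFC IP) and 3 to 12 (VCX IP). Those between IP and input moved to 5 to 10 (PFC) and 11 to 15 (VCX) at day 1 and 4 to 14 and 11 to 15 at day 2. Whole tissue gave 0 to 30, with 30 without the library labelled PBS replicate 3; members lower in the day 1 VCX input were 1 to 2, with Coro1a added without LPS replicate 4; and members higher in the IP of LPS animals in VCX at day 1 were 3 to 6, with 3 without input LPS replicate 2 or 4. The cause was not tested.

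Of single members, Trem2 in the day 2 VCX IP was also lost without rescaling, filter or covariate, with a pseudocount of 1 and by limma-voom. Leaving out the 3 day 14 libraries under 10 M reads, a choice made after seeing the data, changed no member's call. Genes near 0.1 FPKM in PBS, such as Msr1 and Fcgr4, are limited by depth. No paired analysis was possible because the labels give the groups no shared replicate numbers.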
